A study of Mus musculus with 12 samples.

Results

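The elements described here are stretches of the mouse genome where transcription start sites were called in leptonema/zygonema (LZ) and again in diplonema (D), but not in pachynema (P), the substage between them. They were selected on the peak calls themselves: overlapping or touching dREG peaks of the 3 substages were merged, and an element on chromosomes 1 to 19 was kept when it held LZ and D peaks and no P peak. This left 357 elements of 63116 in all, or 0.566% (95% Wilson interval 0.510 to 0.627, which covers counting error alone). dREG is a program that finds promoters and enhancers from the pattern of nascent RNA on both strands, and gives each peak a score that is higher the more the pattern looks like a site of initiation, with a p-value.

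The nascent RNA came from leChRO-seq, a chromatin run-on in which polymerases already engaged on DNA add biotin-labelled nucleotides to the RNA they are making. Wild-type (WT) male germ cells from adult mice were separated by STAPUT, a sedimentation of cells through a gradient by size, into LZ, P and D fractions with 4 libraries each. All 3 groups share the WT genotype and had no treatment. The fractions were enriched and not pure, so that each can hold cells of an earlier or later substage. Peaks were deposited as 1 list per substage (71107 peaks in LZ, 68352 in P and 38603 in D), so no value below has a spread over libraries and no difference between substages could be tested. The depth behind each list was not analysed here.

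In meiotic prophase I, homologous chromosomes pair in leptonema and zygonema, are fully synapsed and recombine in pachynema, and begin to separate in diplonema. Pachynema is known for a broad activation of transcription in male germ cells, and active promoters and enhancers are both known to start RNA in opposite directions from a short stretch of open DNA.

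The sequences of the 3 best supported elements near gene starts and the 3 best supported farther away are shown first. They give the letters behind the calls ranked highest in each class on both sides of pachynema. Members were ranked by the lower of their percentile in the LZ list and their percentile in the D list, and the first 3 within 1000 bp of an annotated transcription start site (TSS) and the first 3 farther away are printed. Each is the plus strand of mm10 within 100 bp of the centre of the stretch shared by the LZ and D peaks, without bases annotated as untranslated region. Capitals mark matches on either strand to any of 14 short motifs.
Pcp4l1: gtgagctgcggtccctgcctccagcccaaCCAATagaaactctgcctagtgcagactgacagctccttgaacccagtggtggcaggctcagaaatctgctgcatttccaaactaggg
Bicra: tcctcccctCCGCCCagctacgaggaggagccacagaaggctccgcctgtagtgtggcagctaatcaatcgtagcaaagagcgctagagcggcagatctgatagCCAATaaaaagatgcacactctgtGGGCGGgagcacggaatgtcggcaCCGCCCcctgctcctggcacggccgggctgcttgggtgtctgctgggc
Gbp2: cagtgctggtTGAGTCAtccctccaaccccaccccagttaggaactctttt
Btbd10: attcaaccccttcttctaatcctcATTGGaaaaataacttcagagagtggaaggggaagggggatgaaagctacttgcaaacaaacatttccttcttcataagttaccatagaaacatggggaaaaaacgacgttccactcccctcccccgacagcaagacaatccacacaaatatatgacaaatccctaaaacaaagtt
Ankle2: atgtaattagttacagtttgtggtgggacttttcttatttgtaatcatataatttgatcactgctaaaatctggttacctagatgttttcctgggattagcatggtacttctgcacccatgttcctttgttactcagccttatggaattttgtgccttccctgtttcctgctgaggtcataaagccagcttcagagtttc
Intergenic, nearest Gm12408: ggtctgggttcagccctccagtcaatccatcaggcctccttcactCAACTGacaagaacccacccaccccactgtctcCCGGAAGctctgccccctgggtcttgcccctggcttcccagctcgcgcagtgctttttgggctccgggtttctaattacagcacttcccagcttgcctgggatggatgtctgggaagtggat
The Pcp4l1 stretch is chr1:171196269-171196385, just upstream of the TSS of Pcp4l1, and holds 1 CCAAT match, the motif of NF-Y. The Bicra stretch is chr7:16048231-16048430, upstream of Bicra, a subunit of a BAF chromatin remodelling complex, and holds 1 CCAAT match and 3 matches to GGGCGG, the motif of SP and KLF factors. The Gbp2 stretch is chr3:142620551-142620601, directly upstream of the TSS of Gbp2, an interferon-induced GTPase, and holds 1 match to TGANTCA, the AP-1 motif. The Btbd10 stretch is chr7:113365056-113365255 in an intron and holds 1 CCAAT match. The Ankle2 stretch is chr5:110246331-110246530, also intronic, in a gene for a protein of the nuclear envelope, and none of the 14 motifs was matched there. The intergenic stretch is chr4:45654661-45654860, nearest to the lincRNA gene Gm12408, and holds 1 match to CAGTTG, the core recognized by MYB factors, and 1 to CCGGAAG, the ETS motif. A match is a description of the letters and not evidence of binding.

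Of 20204 elements with LZ and D peaks, 357 lacked a P peak, or 1.77%. This percentage is the rule's own contrast, and nothing is read from it. The counts for the other lists, given beside it as descriptions, were 2522 of 22369 elements with P and D peaks (11.3%, Wilson interval 10.9 to 11.7) without an LZ peak and 13776 of 33623 with LZ and P peaks (41.0%, 40.4 to 41.5) without a D peak. The lists differ in length, D being the shortest, and the number of members depended on the settings. It was 10 when LZ and D peaks were held to scores of at least 0.5 with all P peaks kept, 125 with that score in all 3 lists, 191 when a P peak within 500 bp also excluded an element, and 804 with each list cut to the length of the shortest, which removes P peaks as well.

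As deposited, the peaks of members had low scores in both lists. The best LZ score in a member ranged from 0.263 to 1.17 with a median of 0.417 (interval 0.398 to 0.442), which lies at a median percentile of 27.3 in the LZ list. The best D score ranged from 0.239 to 0.684 with a median of 0.332 (0.324 to 0.347), at a median percentile of 14.3 in the D list. Elements of all 3 substages had medians of 1.05 in LZ and 0.688 in D. Elements called in LZ alone had a median LZ score of 0.388, and elements called in D alone a median D score of 0.339, so that the scores of members lay near those of elements seen in 1 list. With each list cut to the length of the shortest, which drops the lowest scores, the 804 members had a median LZ score of 0.683 and a median D score of 0.375. Both scores reached 0.5 in 8 members, and in 237 members neither did. Across the 357 members the LZ and D scores had a Pearson's r of -0.02 and a Spearman's rho of 0.05, given as a description; all LZ scores come from 1 pooled list and all D scores from another.

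Divided by the strength of the other calls, the share of elements without a P peak was lower at higher percentiles. The shares without an LZ or a D peak were so too. The first is the rule's own contrast, so all these shares are descriptions and nothing is read from them. Where the lower of the LZ and D percentiles was at most 10, 162 of 1420 elements (11.4%, interval 9.86 to 13.2) had no P peak. The share was 6.52% from 10 to 20, 3.51% from 20 to 30, 1.77% from 30 to 40 and 0.506% from 40 to 50. Above the 50th percentile in both lists, 1 element of 12229 lacked a P peak, and this was the element at Pcp4l1. Members at or below the 20th percentile numbered 263, or 73.7% of all. For elements with P and D peaks the share without LZ went from 30.2% at or below the 20th percentile to 17.9% up to the 50th and 3.81% above it, and for elements with LZ and P peaks the share without D went from 80.8% to 68.4% and 20.1%. For P the same steps were 8.86%, 1.86% and 0.00818%.

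**Figure D1:**
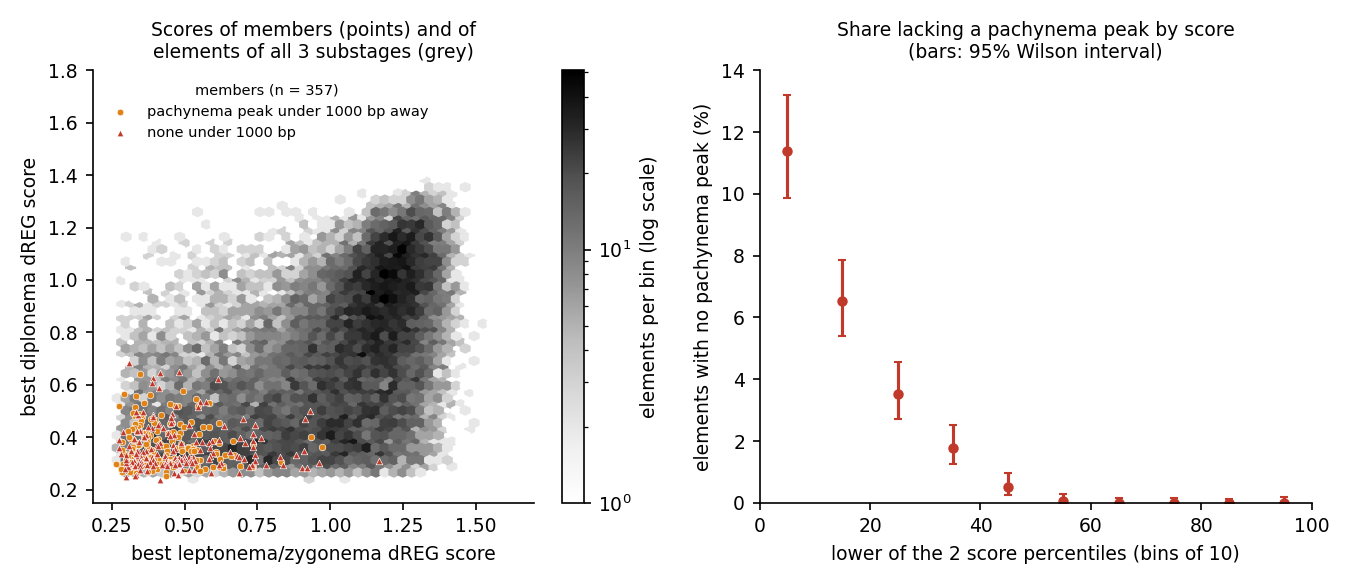
Left, best LZ dREG score (x) against best D dREG score (y) of the 357 members (points, coloured by whether a P peak lies under 1000 bp away) over the elements of all 3 substages (grey bins, shaded by their number on a log scale). Right, percentage of elements with LZ and D peaks that lack a P peak, by the lower of their score percentiles, with 95% Wilson intervals. It goes from 11.4% in the lowest bin to 0.0505% between the 50th and 60th percentile, a description of the rule's own contrast. Members sit in the low corner of the left plot.

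A member usually consisted of 1 LZ and 1 D peak (326 of 357). The peaks shared a median of 310 bp, which was a median of 59.7% of the element, and the midpoints of the best LZ and best D peak lay a median of 85.0 bp apart, with 204 members (57.1%) at 100 bp or less. In 1 member the LZ and D peaks touched without sharing a base. Members had a median width of 550 bp, against 1080 bp for elements of all 3 substages, 380 bp for LZ alone and 370 bp for D alone.

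The gap from the edge of a member to the nearest P peak had a median of 750 bp (interval 440 to 1140) and ran from 10 bp to 248450 bp. It was under 100 bp in 69 members (19.3%), under 500 bp in 165 (46.2%) and under 1000 bp in 192 (53.8%, interval 48.6 to 58.9), and 92 members (25.8%) had no P peak within 10000 bp. Of elements called in D alone, 54.6% (52.4 to 56.8) had a P peak under 1000 bp away, and of those called in LZ alone 34.5% (33.8 to 35.3). Distance to P was used to choose members as far as it could not be 0, so these shares are descriptions. They also moved with the settings: the share under 1000 bp and the median gap were 35.7% and 3940 bp when peaks up to 100 bp apart were merged, 32.8% and 4470 bp when all lists were held to scores of at least 0.5, and 30.3% and 7275 bp with lists of equal length.

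**Figure D2:**
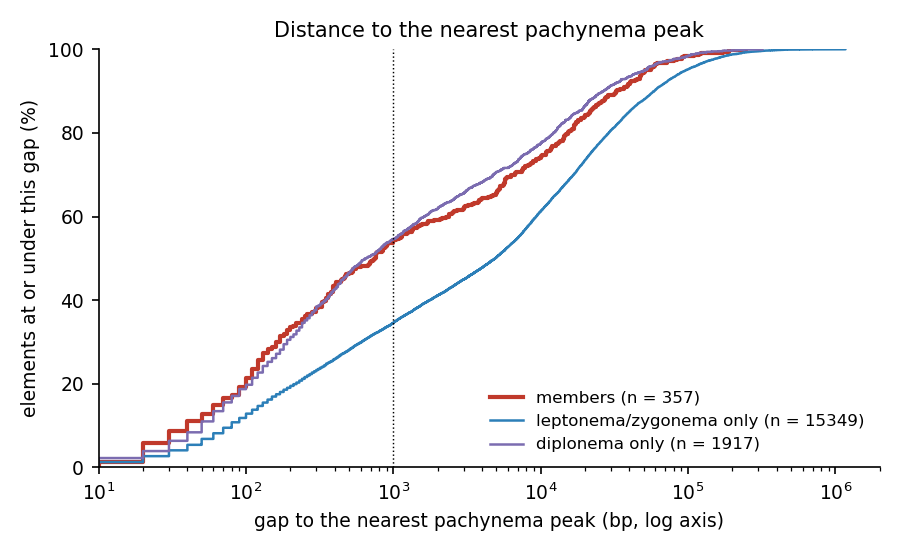
Cumulative percentage of elements (y) by the gap to the nearest P peak in bp (x, log axis) for 357 members, 15349 elements called in LZ alone and 1917 called in D alone; the dotted line is 1000 bp. The line of members runs beside that of D alone up to 1000 bp (53.8% and 54.6%) and above that of LZ alone (34.5%).

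In the 192 members with a P peak under 1000 bp away, the neighbouring P peak belonged to an element of all 3 substages in 117 (60.9%), to an element of LZ and P in 38 (19.8%), to an element of P alone in 28 (14.6%) and to an element of P and D in 9 (4.69%). The score of that P peak had a median of 0.567, against 0.572 for the whole P list. Members with and without a P peak this near had median LZ scores of 0.390 (interval 0.372 to 0.418) and 0.456 (0.422 to 0.478) and median D scores of 0.336 and 0.331.

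At the edge of the rule, the members with the smallest gap lay 10 bp from a P peak. The first was chr10:59920711-59921140, with scores of 0.324 in LZ and 0.362 in D beside a P peak of 0.369. The next were chr12:71582531-71582870, with 0.341 and 0.379 beside a P peak of 0.776, and chr12:73394391-73394860, with 0.330 and 0.515 beside a P peak of 0.356. In all, 5 members had a gap of 10 bp and 16 a gap of 20 bp. Just outside the rule, the elements of all 3 substages with the fewest bases covered by P peaks held 130 bp at Minos1 (chr4:139130651-139130780, P score 0.626), 200 bp at chr11:120902431-120902780 (P score 0.450) and 210 bp at chr4:95829971-95830480 (P score 0.375). The Minos1 element was only 130 bp wide, the smallest width of its class, and was covered by P in full. Its few covered bases therefore follow from its width and do not place it close to the rule's edge. The peak positions are multiples of 10 bp, so 10 bp is the smallest gap the lists can show.

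The share of members at gene starts lay between those of elements of all 3 substages and of elements called in LZ alone. With proximal taken as under 1000 bp from a TSS of GENCODE M21, 175 members (49.0%, interval 43.9 to 54.2) were proximal, 20 (5.60%) were distal and touched an exon, 69 (19.3%) lay within introns and 93 (26.1%) were intergenic. The proximal share was 63.2% (62.5 to 63.9) for elements of all 3 substages, 24.2% (23.5 to 24.9) for LZ alone, 40.8% (38.7 to 43.1) for D alone and 40.3% for all elements. Members near a P peak were proximal in 60.9% (53.9 to 67.6), and members with no P peak under 1000 bp in 35.2% (28.3 to 42.7). The same split gave 52.1% and 27.4% for D alone and 38.3% and 16.7% for LZ alone. These intervals count elements as if independent, and no test of the differences was made.

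**Figure D3:**
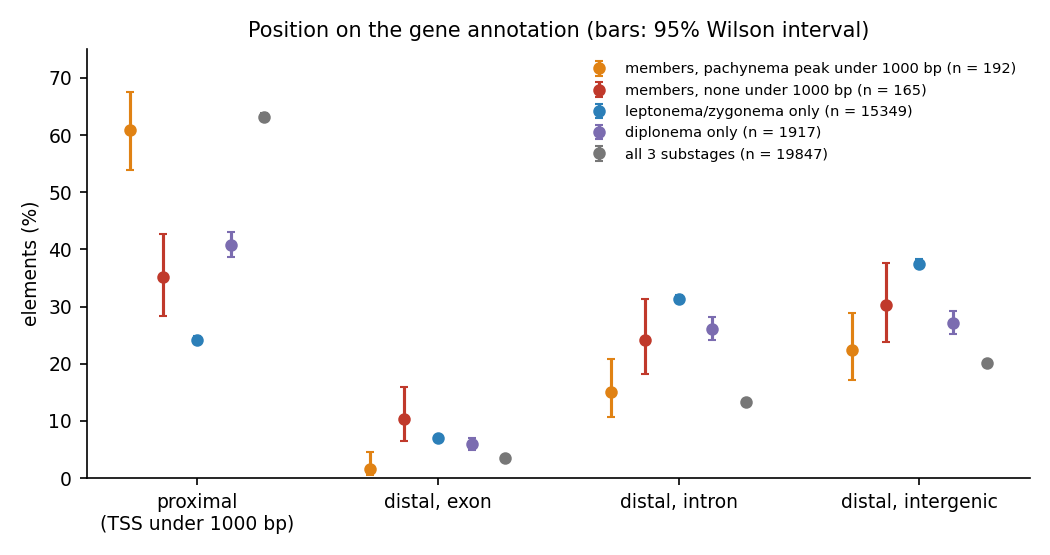
Percentage of elements (y) that were proximal, exonic, intronic or intergenic (x), with 95% Wilson intervals, for members with (n = 192) and without (n = 165) a P peak under 1000 bp away and for 3 comparison classes. Members near a P peak were 60.9% proximal, close to the 63.2% of elements of all 3 substages, and the other members 35.2%; the comparison classes are not divided by the distance to P.

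Proximal members often lay beside the TSS and not over it. A TSS fell inside 79 of the 175 (45.1%, interval 38.0 to 52.5), while 41 (23.4%) lay upstream of the nearest TSS and 55 (31.4%) downstream. Proximal elements of all 3 substages held a TSS in 89.7%, those of LZ alone in 32.3% and those of D alone in 24.4%. Elements of all 3 substages were also wider than members, and members wider than elements of LZ or D alone. Width was not held equal in these shares. Among the 58 proximal members with no P peak under 1000 bp, 40 (69.0%) held the TSS. Of all 175 proximal members, the nearest TSS belonged to a protein-coding gene in 129 (73.7%) and to a lincRNA in 18 (10.3%). It belonged to an antisense transcript in 13 (7.43%) and to a pseudogene in 7 (4.00%). Among all proximal elements the shares were 77.4% for protein-coding genes, 9.24% for lincRNAs and 4.78% for pseudogenes. The antisense share was 2.68% for proximal elements of all 3 substages, 6.12% for LZ alone and 4.21% for D alone. These differences were not tested.

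The genes at proximal members were searched for P peaks at any of their starts. In 129 of 175 proximal members (73.7%, interval 66.7 to 79.7) the gene of the nearest TSS had a P peak under 1000 bp from 1 of its annotated TSSs. This share was 45.6% with scores of at least 0.5 in all 3 lists, 42.9% with LZ and D peaks held to that score, and 38.6% when a P peak within 500 bp also excluded an element. Among the 117 proximal members near a P peak, the nearest TSS itself lay in a P peak in 64 (54.7%). Across all gene types 218 genes had a TSS under 1000 bp from a member, and 151 were protein-coding. Of these 151, 114 (75.5%) had a P peak under 1000 bp from a TSS and 37 (24.5%) had none, and for 26 of the 37 the member held the TSS. Beside this, 61.2% of all 20780 protein-coding genes, and 99.4% of the 10487 with LZ and D peaks, had a P peak; the rule itself used the P calls, so these shares are descriptions.

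The best supported proximal members fell into both kinds. Pcp4l1 had a member over its single TSS (chr1:171196131-171196450) with scores of 0.615 in LZ and 0.621 in D, and the nearest P peak was 25870 bp away. The member at Gbp2 (chr3:142620411-142620930) also held the TSS, with 0.573 in LZ and 0.534 in D, and the nearest P peak was 59310 bp away. The member over the divergent starts of Ssna1, which encodes a microtubule-associated protein, and Anapc2, a subunit of the anaphase-promoting complex (chr2:25272181-25272880), scored 0.546 and 0.515 with a P peak 8600 bp away. At these 3 places no start of the gene was called in P.

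Zfp429, of the Zfp zinc finger family, had a member over its TSS (chr13:67399661-67399960) with scores of 0.481 in LZ and 0.650 in D, and the nearest P peak was 21230 bp away. The member at Gm47608 (chr10:52450741-52451270) had 0.515 and 0.447 and a P peak 31890 bp away, and 93.8% of its bases were soft-masked, that is, marked as repeats or low complexity in the reference.

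The other proximal members of this rank lay beside a P peak. The member upstream of Bicra (chr7:16048161-16048500) had 0.583 in LZ and 0.530 in D, and a P peak with a score of 0.288 began 20 bp away and covered the Bicra TSS. At Galnt2, which starts mucin-type O-glycosylation, the member (chr8:124231111-124231600) had 0.619 and 0.456 and the P peak was 130 bp away. At Nrip1, a corepressor of nuclear receptors, the member (chr16:76371821-76372640) had 0.584 and 0.440 with a P peak 20 bp away. At each of these 3 genes the P call lay under 1000 bp from a TSS of the same gene.

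At Isg20, an interferon-stimulated exonuclease, the member (chr7:78913151-78913990) had 0.484 and 0.449 and a P peak 30 bp away. At Dzip1, a gene of ciliary signalling, the member (chr14:118917161-118917780) had 0.521 and 0.458 with a P peak 180 bp away, and at Tmem95, a sperm membrane protein needed for fusion with the egg, the member (chr11:69877491-69878380) had 0.467 and 0.520 with a P peak 300 bp away. The remaining member of the 12, at the pseudogene Gm9726 (chr12:93929431-93929880), had 0.547 and 0.519, lay 240 bp from a P peak and was 100% soft-masked.

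**Figure D4:**
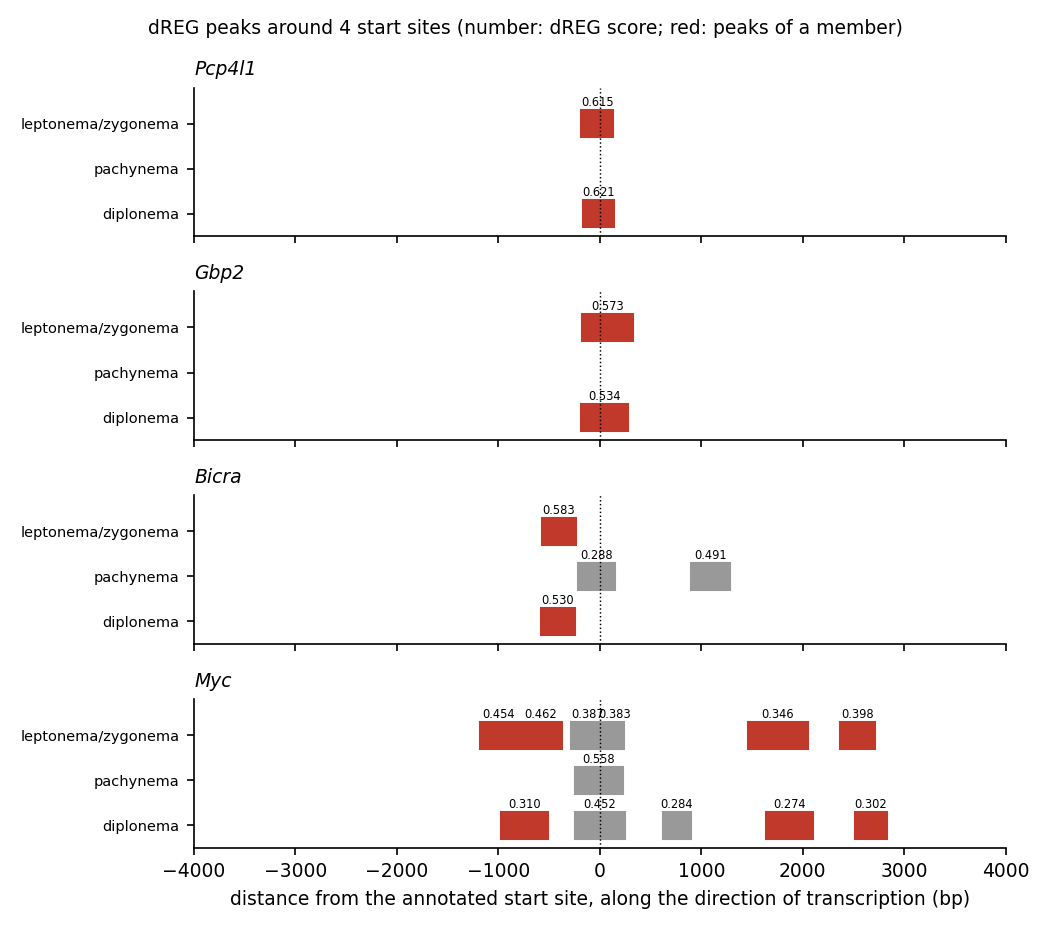
LZ, P and D peaks around the starts of Pcp4l1, Gbp2, Bicra and Myc, by distance from the TSS along the direction of transcription (x, bp); numbers are dREG scores and red marks the peaks of a member. No P peak lies within 4000 bp of Pcp4l1 or Gbp2, whereas at Bicra a P peak covers the TSS beside the member and at Myc 3 members flank a start called in every substage.

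Of the 8 distal members ranked highest, all but 1 lay inside a protein-coding gene. The intronic member of Ankle2 (chr5:110246131-110246780) had 0.932 in LZ and 0.502 in D, with the nearest P peak 14480 bp away. The intronic member of Btbd10 (chr7:113364981-113365360) had 0.553 and 0.536, with a P peak 2060 bp away. A member over an exon of Cnot1, the scaffold of the CCR4-NOT deadenylase (chr8:95748691-95749180), had 0.914 and 0.471, with a P peak 32580 bp away. The LZ score was the higher percentile at Ankle2 and Cnot1 and the D score at Btbd10.

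The intron of Arhgap10, a GTPase-activating protein (chr8:77338271-77339010), held a member with 0.699 and 0.470 and a P peak 56730 bp away. In Prkd2, a protein kinase (chr7:16864811-16865860), the exonic member had 0.635 and 0.444 with a P peak 8230 bp away. The distal members at Ankle2, Btbd10, Cnot1, Arhgap10 and Prkd2 had no P peak within 1000 bp.

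In Ehmt1, a histone H3 lysine methyltransferase (chr2:24872301-24872740), the member had 0.495 and 0.576 and a P peak lay 20 bp away. The intergenic member nearest Gm12408 (chr4:45654551-45655040) had 0.538 and 0.546, with a P peak of 0.442 at 80 bp, and the nearest protein-coding gene, the adaptor Shb, was 122081 bp away.

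The examples given here from the 37 protein-coding genes with a member and no P peak at any TSS were picked after their values were seen, and stand for no group of genes. Axl, a receptor tyrosine kinase, had a member over a TSS with 0.414 in LZ and 0.644 in D. Laptm5, a lysosomal membrane protein of blood cells, had 0.687 and 0.325, and Sirpa, an inhibitory receptor of myeloid cells, 0.319 and 0.307. Ifitm2, an interferon-induced membrane protein, had 0.538 and 0.383. Osr1, a developmental transcription factor, had 0.306 and 0.304, and Chrd, a BMP antagonist, 0.339 and 0.485. Exosc6, of the RNA exosome, had 0.425 and 0.436, and Uqcr11, of respiratory complex III, 0.778 and 0.293. For the distance to the nearest P peak from any TSS, the 37 genes ran from 1032 bp at Sult2b1 to 172705 bp at Gm3002.

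Lists of somatic and other germ cell markers were counted in the same way. None of 22 spermatogonial, 20 Sertoli, 11 Leydig and 21 peritubular, endothelial and macrophage markers on these chromosomes had a member under 1000 bp from a TSS, beside 151 of 20780 protein-coding genes (0.727%). At that share lists this short would seldom hold a gene with a member, so nothing is read from these counts. Peaks of the lists did lie at some of these markers. In LZ, P and D respectively, 16, 17 and 10 of the spermatogonial markers had a peak, 8, 12 and 9 of the Sertoli markers, 1, 3 and 2 of the Leydig markers, and 9, 5 and 1 of the peritubular, endothelial and macrophage markers. The part of other cell types in the members was not tested.

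For the lists of meiosis, too, the counts were too small to set apart from the 0.727% of all protein-coding genes. None of 36 early meiosis genes, such as those for the synaptonemal complex and double-strand break formation, and none of 32 listed spermatid genes had a member, though 31 and 27 of them had both LZ and D peaks and 33 and 28 had P peaks. Of 23 genes of pachynema, 22 had a P peak and 1 (4.35%) had a member: upstream of Rfx2, a transcription factor of spermiogenesis, the member (chr17:56831741-56832460) had 0.289 in LZ and 0.298 in D, lay 728 bp from the TSS and 400 bp from a P peak, and the TSS itself was in a P peak. Of 24 immediate early and heat shock genes, 21 had a P peak and 1 (4.17%), Myc, had members. These counts hold for the listed genes. Outside the lists, and named after their values were seen, members also lay at Hspb1, a small heat shock protein (0.341 in LZ and 0.318 in D, 10 bp from a P peak), at Fosl2, of the FOS family (0.291 and 0.565, 170 bp), and at Catsperd, a subunit of the sperm calcium channel (0.301 and 0.279, 40 bp), besides Tmem95 above. The Catsperd member lay 413 bp from the Catsperd TSS and 404 bp from the TSS of Lonp1. Lonp1 was thus the nearest gene, and its TSS was in a P peak.

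Myc, a transcription factor of cell growth, was the gene with 3 members, and 2 of them were the only members of the 357 with another within 1000 bp. The upstream member (chr15:61984211-61985020) had 0.462 in LZ and 0.310 in D. Within the gene, chr15:61986851-61987490 had 0.346 and 0.274 and chr15:61987761-61988220 had 0.398 and 0.302. The main TSS was covered in P by a peak with a score of 0.558, which lay 120, 1230 and 2140 bp from the 3 members. LZ and D peaks were also called over this TSS, with scores of 0.387 and 0.452.

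In gene families, 4 of 358 Zfp zinc finger genes (1.12%) had a member, 0 of 67 clustered histone genes and 1 of 1455 olfactory and vomeronasal receptor genes (0.0687%), beside 0.727% of all protein-coding genes. Both LZ and D peaks lay near 237, 37 and 18 genes of these families respectively, and near 10487 of all 20780 protein-coding genes. Most receptor genes thus had no such pair of peaks, and with counts this small nothing is read from these shares. Besides Zfp429, the counted zinc finger genes with a member were Zfp667 (0.350 in LZ, 0.484 in D, P peak 240 bp away), Zfp69 (0.351 and 0.313, 120 bp) and Zfp558 (0.353 and 0.291, 40 bp). Zfp36l2 was not counted in this family, and a member (0.496 in LZ, 0.315 in D) lay 384 bp from its TSS. The receptor was Olfr127, where the member (chr17:37902911-37903710) had 0.658 and 0.329 and lay 30 bp from a P peak of 0.754.

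Base composition of members followed their position. The median GC content of proximal members was 53.6% (interval 50.4 to 55.2) and of distal members 46.6% (45.6 to 47.2), beside 55.1% and 46.6% for elements of all 3 substages. The observed to expected ratio of CpG dinucleotides, which is high in CpG islands, was 0.366 (0.316 to 0.437) in proximal members, against 0.660 (0.655 to 0.665) in proximal elements of all 3 substages, 0.310 in those of LZ alone and 0.353 in those of D alone. Distal members had 0.229, and distal elements of all 3 substages 0.218. The lower CpG ratio of proximal members was computed over shorter stretches that hold a TSS less often.

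Soft-masked bases, mostly repeats, were counted next. The median soft-masked share was 10.0% in proximal and 19.7% (14.2 to 23.6) in distal members, beside 8.88% and 16.3% for elements of all 3 substages. For LZ alone the proximal and distal medians were 9.66% and 16.0%, and for D alone 8.79% and 13.2%. At least 50% of the bases were soft-masked in 45 members (12.6%, interval 9.56 to 16.5), against 4.80% of elements of all 3 substages, 16.7% of LZ alone and 10.2% of D alone. In distal members the share was 18.7%, beside 11.0% for all 3 substages, 19.6% for LZ alone and 12.1% for D alone.

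The 14 motifs were counted in members and in all elements. Within 100 bp of the element's centre, on either strand, CAGTTG (MYB) was present in 40 of 357 members (11.2%, interval 8.34 to 14.9) and in 11.0% of all 63116 elements. CCAAT (NF-Y) was in 26.9% (22.6 to 31.7) and 24.1%, GGGCGG (SP and KLF) in 16.5% and 16.2%, CNCCTCAG (STRA8) in 5.04% and 5.02%, the core of the TATA box, TATAAA, in 9.52% and 8.91%, and the site of GATA factors, AGATAA, in 7.28% and 8.23%. GTTGCCA (RFX) was in 3.08% and 4.33%, CACGTG (the E-box) in 3.36% and 3.95%, CCGGAAG (ETS) in 2.52% and 3.54%, and TGANTCA (AP-1) in 4.20% and 6.32%.

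The remaining motifs were rare in members and in all elements alike. AGGGGGCGC (the CTCF core) was in 3 members (0.840%) and 0.536% of all elements, and TGACGTCA (CREB and CREM) in 2 (0.560%) and 0.830%. CAAGGTCA (NR5A1) was in 2 members (0.560%) and 1.45% of all elements, and GCGCATGCG (NRF1) in 1 (0.280%) and 0.501%. The widest gap was for ETS in proximal elements, where 2 of 175 members (1.14%, interval 0.314 to 4.07) and 5.38% of all proximal elements had the motif. In distal elements the order was the other way, with 7 of 182 members (3.85%) and 2.29% of all distal elements. It was picked after the shares of all motifs were seen. No motif was found in 125 members, and as this was not counted for all elements, nothing is read from it. None of the 14 motifs is contained in another.

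Members were spread over all 19 autosomes. Chromosome 7 held the most, 36 of 3807 elements (0.946%, interval 0.684 to 1.31), and chromosome 18 the fewest, 7 of 2208 (0.317%, 0.154 to 0.653), and these intervals of the highest and lowest chromosome were chosen after the values were seen. The median distance from a member to the next was 2012380 bp, and 18 members had another within 100000 bp.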

How the data were processed

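In brief, per the labels and the study's methods, the authors trimmed leChRO-seq reads with cutadapt, aligned them with BWA to mm10 and ran dREG with default settings; versions were not given in the sources used here. The deposited files are 1 peak list per substage, pooled over 4 libraries, with a dREG score and a p-value (at most 0.05) for each peak, and a deposited centre that was not used. No peak lay past the end of a chromosome of the GRCm38 (mm10) reference.

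Peaks on chromosomes 1 to 19 were merged where they overlapped or touched. TSSs, exons and genes came from GENCODE M21, and sequence and soft-masking from the RefSeq GRCm38 genome. Wilson and order-statistic intervals (95%) cover counting error alone. With 1 list per substage no test was run. Merging, distances and motif search were checked on simulated data. Members, gene lists and alternatives were chosen with earlier results of these data known. Named members are the first 12 proximal and 8 distal by lower score percentile and the first 10 with no P peak within 1000 bp. All members near a listed gene and those at the edge of the rule are named too. Examples from genes with no P peak at any TSS were picked after their values were seen. The same holds for the members at Hspb1, Fosl2, Catsperd and Zfp36l2. 1 of the ranked distal members is not reported here. Python 3.11.15 with pandas 2.3.3 and numpy 2.4.6 was used.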

Additional observations from a re-analysis of the deposited data

Results flagged for a closer look

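Chromosomes X and Y were left out of the comparisons, and elements meeting the same rule were present there. On X and Y, 18 elements held LZ and D peaks and no P peak, 17 on X and 1 on Y. They were 2.69% (Wilson interval 1.71 to 4.21) of the 669 elements there with LZ and D peaks. Their median scores were 0.437 in LZ and 0.377 in D, 9 had a P peak under 1000 bp away, and the median gap was 4295 bp. The difference from the autosomes was not tested.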

How the results depend on the processing

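No paired analysis was possible because the lists pool the 4 libraries of a substage, and no library could be left out. Of 77 values recomputed under 12 alternatives, 36 stayed within 1.5 times (the count) or within the interval of the reported value, and 41 did not; the cause was not tested.

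Keeping all P peaks but only LZ and D peaks with scores of at least 0.5, the number of members fell to 10. With 70.0% proximal, a median P distance of 1150 bp, median scores of 0.565 in LZ and 0.524 in D, 55.2% GC and 42.9% of proximal members with a P peak at the gene, these few had wide intervals. With that score in all 3 lists there were 125 members, 54.4% proximal, 32.8% with a P peak within 1000 bp, a median distance of 4470 bp, scores of 0.615 and 0.570, 10.8% soft-masked, 52.3% GC and 45.6% with a P peak at the gene. Cutting each list to the 38603 peaks of the shortest gave 804 members, 30.3% near P, a distance of 7275 bp, scores of 0.683 and 0.375, and 49.2% with a P peak at the gene. A p-value of at most 0.01 gave 48.0% near P, 1210 bp, scores of 0.481 and 0.386, and 62.4%. In these settings the P list also lost peaks, except in the first, so an element can lack a P peak because it was removed.

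Merging peaks up to 100 bp apart left 263 members, 43.0% proximal, 35.7% near P, a distance of 3940 bp and 56.6% with a P peak at the gene. Excluding elements with a P peak within 500 bp left 191 members, 36.6% proximal, 13.6% near P, 8860 bp, an LZ score of 0.454 and 38.6%. The proximal share was 37.8% with protein-coding TSSs alone and 38.9% with TSSs under 500 bp away, and the share with a P peak at the gene was then 61.9% in the latter. In the 200 bp around the centre 10.5% was soft-masked. The depth of the libraries was not analysed here, and the lists hold no entry for a start that was not called, so that a member has no P score.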
